A study of Mus musculus with 18 samples.

Results

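A set of genes of the extracellular matrix and of the fibroblasts that make it were followed in normal mammary gland and in mammary tumours of mice, some of them of an ErbB2 knock-in genotype. The genes were taken by symbol from a list of 40 names, all 40 were found among the 28919 genes and unnamed transcripts on the array, and 1 of them, Vcan, was listed under an older symbol. They comprise 5 fibrillar collagens, 4 collagens of basement membranes and their surroundings, 5 collagens of beaded filaments and fibril surfaces, 8 genes of adhesive and elastic fibres, 7 genes of proteoglycans and dermatopontin, 6 matricellular genes and 5 markers of fibroblasts and related mesenchymal cells.

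RNA came from whole flash-frozen tissue of female FVB/N mice. There were 2 normal mammary glands, 2 pools labelled NIC that each combined 5 tumours, and 5 single tumours whose genotype is given as ErbB2 knock-in (KI). Every RNA was hybridised against a commercial universal mouse reference on 2 arrays with the dyes exchanged, so that 9 RNA samples gave 18 arrays. The labels state no ages, promoters or Cre drivers, do not spell out NIC or the suffix PI in the name of normal gland 2, and do not say whether the KI tumours came from separate mice. The p-values therefore cover the spread among the RNA samples alone, which may be partly technical. The NIC pools average 5 tumours each, and single NIC tumours were not analysed here.

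Fibroblasts secrete fibrillar collagens that assemble into the tensile framework of the mammary stroma, and small leucine-rich proteoglycans coat those fibrils and set their spacing. Collagen IV and its partners form the sheet on which epithelium and vessels rest. Matricellular proteins such as thrombospondins and tenascin C bind this scaffold and signal to cells, and many of them are scarce in resting tissue and abundant in wounds and tumours. The normal mammary gland of the mouse lies in a fat pad rich in adipocytes, vessels and fibroblasts, and tumour epithelium takes up much of a mammary tumour.

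Levels are log2 ratios of sample over reference, averaged over the dye pair of each RNA, so a level of 0 equals the reference and levels of different genes are not set against each other. Differences were tested with limma, and a gene was called at a Benjamini-Hochberg adjusted p under 0.05 over all 28919 genes. Where a gene had several probes, the brightest on the KI arrays was used. All 40 chosen probes were well above background in both channels on all 10 KI arrays, and 0 were saturated. The KI values lie in a table of their own, listed under another array platform. In both comparisons that involve KI, the table, the platform and the KI group therefore cannot be told apart. In these bulk samples, fewer cells of a type and less RNA per cell cannot be told apart either.

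Erbb2, the gene named in the genotype, was higher in both tumour kinds than in normal gland. Its levels were -1.08 and -1.29 in the normal glands, 0.39 and 0.81 in the NIC pools, and 0.83, 0.70, 1.01, 0.81 and 0.30 in KI tumours 1 to 5. The difference was 1.79 ± 0.20 (SE) for NIC over normal (limma adjusted p = 0.0202, and 0.0503 to 0.104 with any of the 4 samples left out) and 1.91 ± 0.20 for KI over normal (limma adjusted p = 0.000468).

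**Figure D1:**
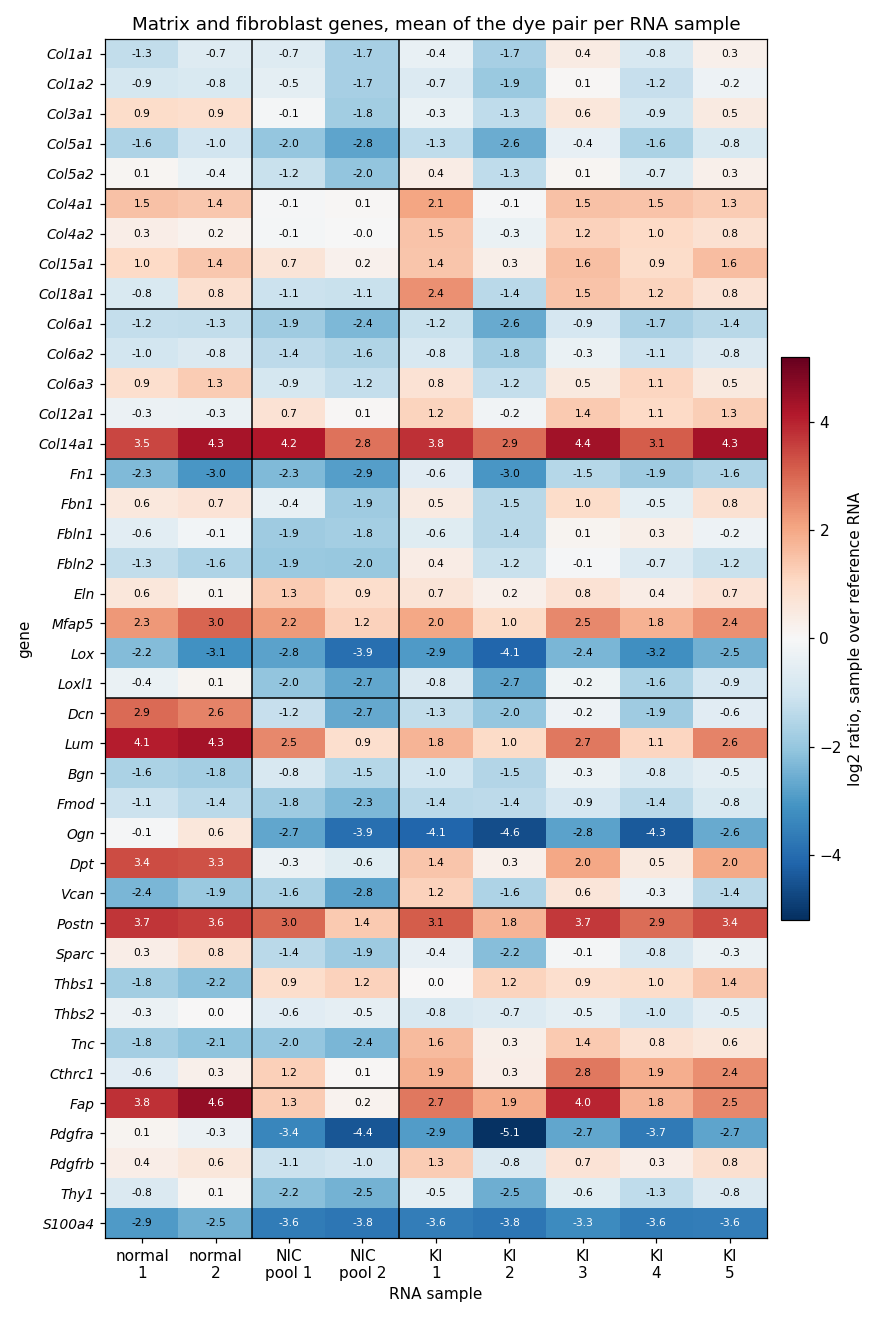
Heat map of the 40 genes (rows, grouped by role between black lines) in the 9 RNA samples (columns), each cell the log2 ratio of sample over reference as the mean of the dye pair. Dcn, Lum and Dpt are red in both normal glands and paler or blue in all tumours, Tnc is blue in normal gland and NIC and red in the 5 KI tumours, and the column of KI tumour 2 is bluer than those of the other KI tumours.

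In the NIC pools, 12 of the 40 genes were lower than in normal gland and 1, Thbs1, was higher. That is 30% lower and 2.5% higher, where over all genes 9.81% were called lower and 8.78% higher. The median difference of the 40 genes was -0.96, against -0.0573 over all genes, and 34 of the 40 differences were negative. In the KI tumours 7 genes were lower and 4 higher than in normal gland, where 24.9% and 17.8% of all genes were called, so the shares of these genes, 17.5% lower and 10% higher, were below those of all genes. Their median difference was -0.15, against -0.0258 over all genes. Both comparisons use the same 2 normal glands.

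Only Tnc was called higher in KI than in NIC, and 0 genes were lower by limma (2.92% and 3.28% of all genes were called higher and lower). At an unadjusted p under 0.05, 11 of the 40 genes were higher in KI and 1 was lower. Over all 28919 genes, 6406 had such a p in KI against NIC, in either direction. The same held for 11310 in NIC against normal and 14797 in KI against normal. The median difference between KI and NIC was 0.83 over the 40 genes and 0.00343 over all genes, with 36 of the 40 differences above 0. By group means, 25 of the 40 genes stood highest in normal gland, 13 in KI and 2 in NIC, where 46.1%, 27.4% and 26.6% of all genes did.

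These counts rest on few samples. Without either NIC pool, 0 of the 40 genes, and 0 of all genes, were called in NIC against normal by limma, so every NIC call given here, related genes included, rests on having both pools. The median difference of the 40 genes in NIC was -1.18 without pool 1 and -0.64 without pool 2. Without normal gland 2 the median difference of the 40 genes was -0.84 in NIC and -0.15 in KI. The NIC calls of Dcn, Ogn, Pdgfra, Fap and Loxl1 were lost without either normal gland, and that of Sparc without normal gland 2. Their NIC differences remained negative, for example -4.52 and -4.88 for Dcn without gland 1 and 2. Each of these fits rests on 1 normal gland. The 4 genes higher in KI than in normal became 2 without KI tumour 1, 3, 4 or 5, where 15% to 16.8% of all genes were higher. They became 7 without KI tumour 2, where 17.9% of all genes were higher.

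**Figure D2:**
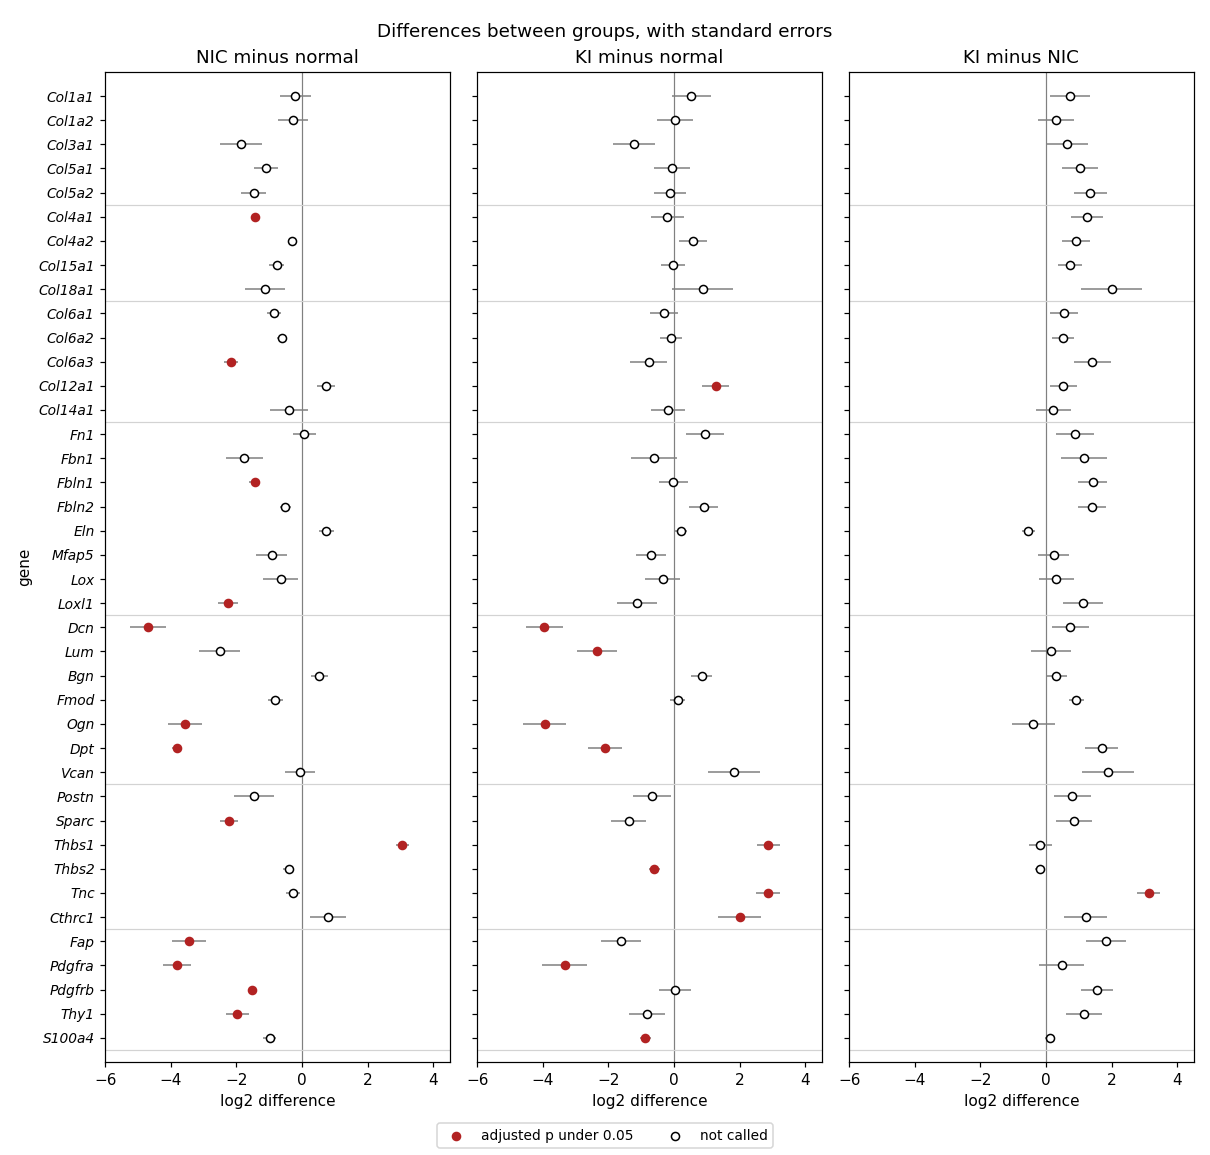
Log2 differences with standard errors for the 40 genes, in NIC minus normal (left), KI minus normal (middle) and KI minus NIC (right). Filled points passed an adjusted p under 0.05; 13, 11 and 1 genes did so in the respective panels, and most points in the right panel lie above 0.

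The group of proteoglycans and dermatopontin included Dcn, which had the largest difference from normal gland among the 40 genes in both tumour kinds. Of 7 genes, 3 were lower in NIC and 4 in KI (42.9% and 57.1%), where 9.81% and 24.9% of all genes were called lower. In either comparison 0 were called higher by limma, with 0 and 1 higher at an unadjusted p under 0.05. Dcn encodes decorin, which binds collagen fibrils and holds TGF-beta in the matrix. Dcn had levels of 2.94 and 2.58 in the normal glands, -1.21 and -2.67 in the NIC pools, and -1.28, -2.02, -0.25, -1.85 and -0.59 in KI tumours 1 to 5. All 7 tumour samples lay below both glands, with no overlap. Dcn was 26.0-fold lower in NIC (difference -4.70 ± 0.56, limma adjusted p = 0.0225) and 15.6-fold lower in KI (-3.96 ± 0.57, limma adjusted p = 0.00167). A second, dimmer Dcn probe, above background on 7 of 10 KI arrays, differed by -0.23 and -0.22.

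Ogn encodes osteoglycin, another small leucine-rich proteoglycan. Its levels were -0.08 and 0.59 in normal gland, -2.71 and -3.91 in NIC, and -4.11, -4.63, -2.78, -4.35 and -2.61 in KI tumours 1 to 5. KI tumours 3 and 5 were the highest of their group, and no tumour reached the glands. Ogn was 11.8-fold lower in NIC (-3.56 ± 0.52, limma adjusted p = 0.0302) and 15.5-fold lower in KI (-3.95 ± 0.65, limma adjusted p = 0.00271).

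Dpt encodes dermatopontin, a small matrix protein that binds decorin. Dpt had levels of 3.40 and 3.30 in normal gland, -0.32 and -0.61 in NIC, and 1.43, 0.26, 2.00, 0.50 and 1.99 in KI. The 3 groups did not overlap, with every KI tumour between the glands and the NIC pools. Dpt was 14.0-fold lower than normal in NIC (-3.81 ± 0.15, limma adjusted p = 0.00786) and 4.31-fold lower in KI (-2.11 ± 0.51, limma adjusted p = 0.0133). The KI call was lost without normal gland 1 or 2 (limma adjusted p = 0.0714 and 0.0611), and the KI difference was -0.77 when arrays were scaled to one interquartile range (limma adjusted p = 0.336).

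Lum encodes lumican, which regulates fibril diameter. Lum had levels of 4.08 and 4.31 in normal gland, 2.5 and 0.87 in NIC, and 1.75, 1.0, 2.73, 1.10 and 2.58 in KI. The tumours again lay below both glands. The NIC pools stood far apart from each other, but the 2 arrays of NIC pool 1 also differed, by 2.54. Lum was lower in KI (-2.36 ± 0.61, limma adjusted p = 0.0175). In NIC it differed by -2.51 ± 0.62, which did not pass (limma adjusted p = 0.0720). The KI call of Lum was lost without normal gland 1 or 2 (limma adjusted p = 0.0707 and 0.0919), and with arrays scaled to one interquartile range its KI difference was -0.64 (limma adjusted p = 0.505).

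The other 3 genes of this group were not called in any comparison. Bgn, for the related biglycan, ranged from -1.75 to -1.64 in normal gland and from -1.54 to -0.35 in KI, a difference of 0.84 ± 0.32 (limma adjusted p = 0.0693). Fmod, for fibromodulin, differed by -0.81 ± 0.24 in NIC and 0.11 ± 0.23 in KI. Vcan, for the large hyaluronan-binding proteoglycan versican, varied widely among KI tumours, from -1.61 in tumour 2 to 1.18 in tumour 1, and its KI difference from normal was 1.83 ± 0.80 (limma adjusted p = 0.102). The other 4 Vcan probes, all dimmer, differed by -0.89 to 0.18 in KI, and 1 of them was above background on 0 of the KI arrays.

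The matricellular genes went both ways. Thbs1 encodes thrombospondin 1, which restrains vessel growth and activates latent TGF-beta. Thbs1 had levels of -1.81 and -2.17 in normal gland, 0.93 and 1.19 in NIC, and 0.00, 1.17, 0.86, 0.96 and 1.43 in KI. All tumour samples were above both glands, with KI tumour 1 the lowest of them. Thbs1 was 8.31-fold higher in NIC (3.06 ± 0.19, limma adjusted p = 0.0103) and 7.33-fold higher in KI (2.87 ± 0.35, limma adjusted p = 0.000849). The other 3 Thbs1 probes, all dimmer, differed by -0.19, 1.73 and 0.84 in NIC and by -0.27, 1.04 and 0.23 in KI.

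Tnc encodes tenascin C, a hexameric glycoprotein of remodelling tissue. Tnc had levels of -1.75 and -2.10 in normal gland, -2.01 and -2.38 in NIC, and 1.64, 0.29, 1.37, 0.79 and 0.58 in KI tumours 1 to 5. Every KI tumour was above all 4 other samples, while normal gland and NIC overlapped. Tnc was 8.76-fold higher in KI than in NIC (3.13 ± 0.36, limma adjusted p = 0.00541) and 7.26-fold higher than in normal gland (2.86 ± 0.36, limma adjusted p = 0.00102). In NIC it differed from normal by -0.27 ± 0.21 (limma adjusted p = 0.407). The other 2 Tnc probes, both dimmer, differed by 0.65 and 0.14 between KI and NIC and by -0.33 and 0.07 between KI and normal gland.

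Cthrc1 encodes a secreted protein with a collagen-like repeat. It had levels of -0.57 and 0.27 in normal gland, 1.23 and 0.05 in NIC, and 1.85, 0.33, 2.76, 1.88 and 2.41 in KI. KI tumour 2 was close to normal gland 2, and the other 4 KI tumours were above every other sample. Cthrc1 was 4.0-fold higher in KI than in normal gland (2.00 ± 0.65, limma adjusted p = 0.0414), a call lost when either normal gland or KI tumour 1, 3, 4 or 5 was left out (largest limma adjusted p = 0.219).

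Sparc encodes osteonectin, a collagen-binding glycoprotein. It had levels of 0.33 and 0.84 in normal gland, -1.40 and -1.90 in NIC, and -0.43, -2.23, -0.11, -0.84 and -0.35 in KI. Sparc was 4.70-fold lower in NIC (-2.23 ± 0.28, limma adjusted p = 0.0240) and differed by -1.38 ± 0.54 in KI (limma adjusted p = 0.0752). Its second probe, also bright, differed by -0.25 in NIC and 0.18 in KI. Thbs2, for thrombospondin 2, was 1.52-fold lower in KI (-0.60 ± 0.16, limma adjusted p = 0.0183), with KI levels from -1.02 to -0.52 and normal levels of -0.29 and 0.04. The Thbs2 difference was -0.43 without normal gland 2 (limma adjusted p = 0.137), -0.24 with samples in Cy3 alone (0.382) and -0.54 without the KI arrays of the smaller image extraction day (0.0779). Postn, for periostin, was not called and had levels of 3.70 and 3.58 in normal gland, 2.98 and 1.36 in NIC, and 1.75 to 3.66 in KI.

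Of the 5 fibroblast and mesenchymal markers, 4 were lower in NIC and 2 in KI (80% and 40%). Among all genes, 9.81% and 24.9% were called lower. Pdgfra encodes the PDGF receptor alpha, a surface marker of fibroblasts. Pdgfra had levels of 0.14 and -0.31 in normal gland, -3.38 and -4.43 in NIC, and -2.89, -5.12, -2.70, -3.67 and -2.74 in KI. All tumours were far below both glands, and KI tumour 2 was the lowest sample of all. Pdgfra was 14.1-fold lower in NIC (-3.82 ± 0.43, limma adjusted p = 0.0207) and 10.1-fold lower in KI (-3.34 ± 0.68, limma adjusted p = 0.00667). A dimmer Pdgfra probe differed by -0.10 and 0.03.

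Fap encodes fibroblast activation protein, a serine protease of the cell surface. It had levels of 3.81 and 4.57 in normal gland, 1.32 and 0.17 in NIC, and 2.73, 1.94, 3.96, 1.77 and 2.49 in KI. KI tumour 3 lay between the normal glands, and the NIC pools were below every other sample. Fap was 10.9-fold lower in NIC than in normal gland (-3.44 ± 0.52, limma adjusted p = 0.0319) and differed by -1.61 ± 0.61 in KI (limma adjusted p = 0.0680). With arrays scaled to one interquartile range the NIC difference was -1.84 (limma adjusted p = 0.0839).

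Pdgfrb, the PDGF receptor beta of pericytes and fibroblasts, had levels of 0.36 and 0.57 in normal gland, -1.11 and -1.01 in NIC, and 1.31, -0.77, 0.71, 0.35 and 0.84 in KI. Pdgfrb was 2.87-fold lower in NIC (-1.52 ± 0.13, limma adjusted p = 0.0136) and differed by 0.03 ± 0.48 in KI (limma adjusted p = 0.970). With all 9 RNA samples in the fit the NIC call of Pdgfrb was lost (limma adjusted p = 0.077). Only KI tumour 2 came near the NIC pools. Thy1, a surface glycoprotein of fibroblasts, was 3.90-fold lower in NIC (-1.97 ± 0.35, limma adjusted p = 0.0422), and both its probes were lower there, the second with a difference of -1.68. The Thy1 difference in NIC was -1.30 with samples in Cy5 alone (limma adjusted p = 0.112). Its NIC call was also lost with all 9 RNA samples in the fit (limma adjusted p = 0.052). S100a4, a calcium-binding protein found in fibroblasts and other motile cells, was 1.83-fold lower in KI (-0.87 ± 0.16, limma adjusted p = 0.00398) and differed by -0.99 ± 0.20 in NIC (limma adjusted p = 0.0505). The KI call of S100a4 was lost with dye pairs kept apart and the RNA as a random block (limma adjusted p = 0.150).

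The 250 bases upstream of the annotated start, from RefSeq on GRCm38.p6, are shown for 3 of these genes because they mark the main contrasts, Tnc higher in KI and Ogn and Pdgfra lower in both tumour kinds; the 3 were chosen after their values were seen. Sequences run 5′ to 3′ on the gene's strand, with matches to the searched motifs in capitals. Tnc lies at chr4:64047016-64047265 (minus strand; the outermost of 2 annotated starts), Ogn at chr13:49607765-49608014 (plus strand) and Pdgfra at chr5:75152001-75152250 (plus strand).
Tnc: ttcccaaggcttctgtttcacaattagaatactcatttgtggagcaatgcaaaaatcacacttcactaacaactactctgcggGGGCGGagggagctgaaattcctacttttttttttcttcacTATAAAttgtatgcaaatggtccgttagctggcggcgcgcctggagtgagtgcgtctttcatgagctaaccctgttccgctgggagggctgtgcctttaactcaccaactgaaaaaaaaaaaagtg
Ogn: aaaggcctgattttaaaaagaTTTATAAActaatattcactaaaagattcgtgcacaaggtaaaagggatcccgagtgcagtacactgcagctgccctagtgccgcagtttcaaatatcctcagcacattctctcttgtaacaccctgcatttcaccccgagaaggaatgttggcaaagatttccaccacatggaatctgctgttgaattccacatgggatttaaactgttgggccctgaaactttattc
Pdgfra: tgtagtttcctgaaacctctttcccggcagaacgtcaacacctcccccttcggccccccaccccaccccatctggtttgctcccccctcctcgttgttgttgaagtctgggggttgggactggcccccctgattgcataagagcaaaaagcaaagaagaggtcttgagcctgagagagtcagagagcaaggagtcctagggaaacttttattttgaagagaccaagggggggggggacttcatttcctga
In Tnc the capitals mark GGGCGG, 167 bases before the start, and TATAAA, 126 bases before it. In Ogn they mark a match to TATAAA on each strand, overlapping, at 229 and 227 bases before the start. In Pdgfra none of the motifs was found in this window. Windows were at hand for 24 of the 40 genes. A gene counted if any of its windows held the motif on either strand. TATAAA, counted at any position in the window and so not as a placed TATA box, was found for 25% of the 24 genes. It was found for 14.3% of all 27025 genes with windows. CCAAT was found for 25% and 37.5%, GGGCGG (a GC box) for 45.8% and 35.4%, and TGANTCA (an AP-1 site) for 4.17% and 7.82%. These matches describe letters in the windows.

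**Figure D3:**
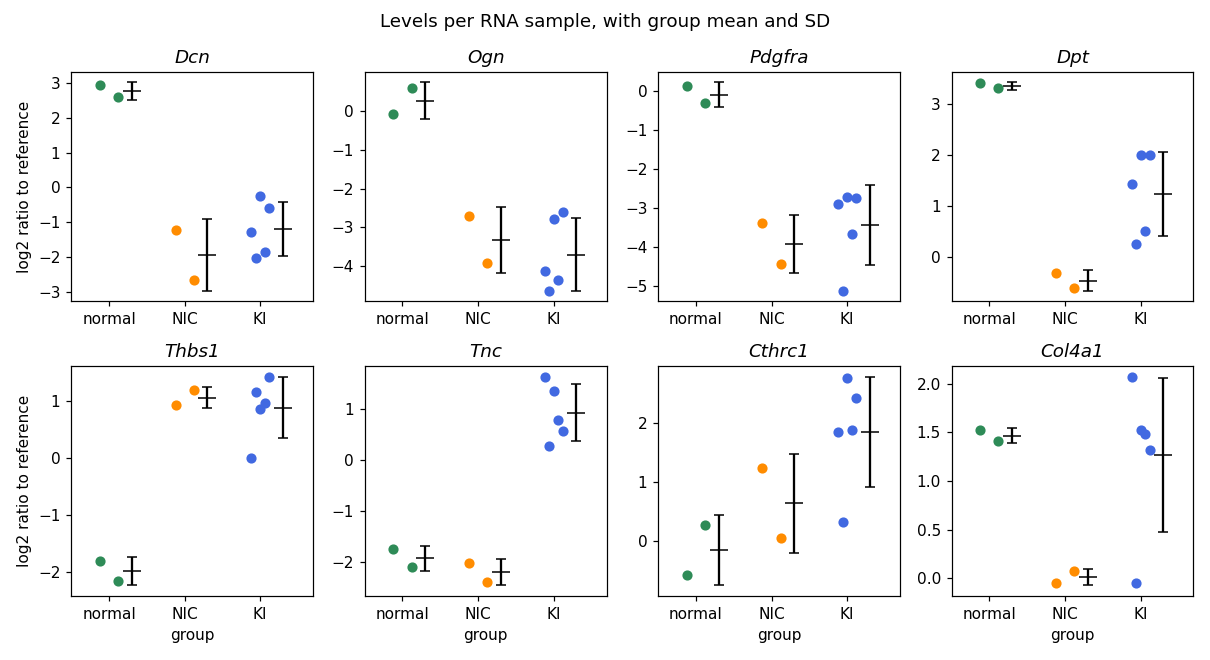
Levels of 8 genes by group, each point 1 RNA sample as the log2 ratio to reference (mean of the dye pair), with the group mean and SD beside the points (n = 2 normal, 2 NIC and 5 KI). Dcn, Ogn, Pdgfra and Dpt are lower in all tumours than in both glands, Thbs1 is higher in all tumours, Tnc is higher in KI than in both other groups, and in Col4a1 KI tumour 2 lies with the NIC pools.

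The fibrillar collagens form the bulk of stromal collagen. For these 5 genes limma called 0 in either direction in NIC and in KI against normal gland, while 2 were lower in NIC at an unadjusted p under 0.05. Over all genes, 11310 of 28919 had such a p in NIC against normal, in either direction. Col1a1, for the alpha 1 chain of collagen I, had levels of -1.29 and -0.69 in normal gland, -0.66 and -1.71 in NIC, and -0.40, -1.74, 0.41, -0.82 and 0.26 in KI. The groups overlapped, and the SD within KI was 0.873. Col1a1 differed by -0.20 ± 0.46 in NIC and 0.53 ± 0.60 in KI, and its second probe by 1.08 and 1.81. Col1a2, for the alpha 2 chain of collagen I, differed by -0.27 ± 0.46 and 0.04 ± 0.55.

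Col3a1, for collagen III, had levels of 0.95 and 0.87 in normal gland, -0.09 and -1.82 in NIC, and from -1.33 to 0.60 in KI. Tumour values lay below both glands, but the differences of -1.86 ± 0.65 in NIC and -1.22 ± 0.64 in KI did not pass (limma adjusted p = 0.129 and 0.164). Collagen V nucleates fibrils. Its genes Col5a1 and Col5a2 differed by -1.10 ± 0.37 and -1.47 ± 0.38 in NIC and by -0.06 ± 0.55 and -0.12 ± 0.50 in KI.

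Among the basement membrane collagens, Col4a1 was lower in NIC. It encodes the alpha 1 chain of collagen IV and had levels of 1.52 and 1.41 in normal gland, -0.05 and 0.07 in NIC, and 2.07, -0.05, 1.52, 1.48 and 1.32 in KI. KI tumour 2 was level with the NIC pools, and the other 4 KI tumours surrounded the glands. Col4a1 was 2.74-fold lower in NIC (-1.45 ± 0.11, limma adjusted p = 0.0125), and its second probe differed by -1.56. With samples in Cy3 alone the NIC difference was -0.96 (limma adjusted p = 0.100), and with all 9 RNA samples in the fit the call was also lost (0.0895). In KI Col4a1 differed from normal by -0.20 ± 0.49. Col4a2, the partner chain, differed by -0.32 ± 0.11 in NIC (limma adjusted p = 0.136) and 0.59 ± 0.43 in KI. A second Col4a2 probe, dimmer but above background on all 10 KI arrays, had the opposite sign in NIC, with differences of 1.44 in NIC and 2.17 in KI. Both genes are read from starts 21 bases apart on opposite strands of chromosome 8 in the RefSeq annotation of GRCm38.p6. Whether the changes of Col4a1 and Col4a2 differed was not tested.

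Col15a1 and Col18a1 encode collagens of the zone around basement membranes, and the latter is the source of endostatin. They differed from normal by -0.77 ± 0.23 and -1.13 ± 0.61 in NIC and by -0.03 ± 0.36 and 0.87 ± 0.93 in KI. The second probe of Col15a1 differed by -1.76 and -0.87, and that of Col18a1 by -1.38 and 0.84. Col18a1 ranged from -1.40 in KI tumour 2 to 2.36 in KI tumour 1 and had an SD of 1.40 over the KI tumours, the largest among the 40 genes.

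Collagen VI forms beaded filaments around cells. Col6a3 had levels of 0.89 and 1.30 in normal gland, -0.91 and -1.25 in NIC, and 0.75, -1.23, 0.50, 1.10 and 0.50 in KI. KI tumour 2 lay with the NIC pools and the other KI tumours near the glands. Col6a3 was 4.51-fold lower in NIC (-2.17 ± 0.22, limma adjusted p = 0.0181). Its other 2 probes, both dimmer, differed by -0.01 and -0.35. Col6a1 and Col6a2, for the partner chains, differed by -0.86 ± 0.21 and -0.61 ± 0.14 in NIC (limma adjusted p = 0.0680 and 0.0675).

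Col12a1 and Col14a1 encode collagens that sit on fibril surfaces. Col12a1 had levels of -0.32 and -0.34 in normal gland, 0.74 and 0.06 in NIC, and 1.17, -0.19, 1.35, 1.05 and 1.29 in KI. It was 2.41-fold higher in KI than in normal gland (1.27 ± 0.42, limma adjusted p = 0.0440), a call lost when either normal gland or KI tumour 1, 3, 4 or 5 was left out (largest limma adjusted p = 0.155). Col14a1 differed by -0.40 ± 0.59 in NIC and -0.18 ± 0.53 in KI, with overlapping groups.

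Of the 8 adhesive and elastic fibre genes, 2 were lower in NIC (25%) and limma called 0 in KI, where 0 also had an unadjusted p under 0.05. Among all genes, 9.81% were called lower in NIC, and 24.9% lower and 17.8% higher in KI. Loxl1 encodes an oxidase that cross-links elastin. Loxl1 had levels of -0.36 and 0.13 in normal gland, -2.05 and -2.69 in NIC, and -0.76, -2.70, -0.23, -1.64 and -0.89 in KI. It was 4.77-fold lower in NIC (-2.26 ± 0.31, limma adjusted p = 0.0276) and differed by -1.13 ± 0.61 in KI (limma adjusted p = 0.176). Lox, for the related lysyl oxidase, differed by -0.65 ± 0.54 and -0.34 ± 0.53.

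Fbln1 encodes fibulin 1, a glycoprotein of elastic fibres and basement membranes. Fbln1 had levels of -0.55 and -0.15 in normal gland, -1.86 and -1.75 in NIC, and -0.62, -1.44, 0.15, 0.29 and -0.25 in KI. It was 2.74-fold lower in NIC (-1.45 ± 0.18, limma adjusted p = 0.0236), and its second probe, similarly bright, differed by -1.37. The NIC call of Fbln1 was lost with all 9 RNA samples in the fit (limma adjusted p = 0.0645). In KI it differed from normal by -0.02 ± 0.44. Fbln2, for fibulin 2, differed by -0.51 ± 0.16 in NIC and 0.90 ± 0.43 in KI.

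Fn1, for fibronectin, differed by 0.07 ± 0.36 in NIC and 0.95 ± 0.57 in KI. Its other 2 probes, both dimmer, differed by 0.97 and -0.07 in NIC and by 2.32 and 0.03 in KI. KI tumour 1 had the highest Fn1 level, -0.60, and KI tumour 2 had -3.01, close to normal gland 2 at -3.03. Fbn1, for the microfibril protein fibrillin 1, had levels of 0.56 and 0.73 in normal gland, -0.37 and -1.86 in NIC, and -1.46 to 0.96 in KI, and was not called. Eln, for elastin, and Mfap5, for a microfibril-associated glycoprotein, differed by 0.74 ± 0.23 and -0.93 ± 0.48 in NIC and by 0.20 ± 0.19 and -0.70 ± 0.46 in KI.

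The 5 KI tumours stood further apart from each other in these genes than in the typical gene on the array. The median SD over the tumours was 0.776 for the 40 genes and 0.154 for all genes. For comparison, the median SD of a dye-pair mean, from the scatter of the dye gaps over the KI tumours, was 0.0754 for the 40 genes. A dye gap shared by all KI tumours drops out of this value, and the normal and NIC arrays are not in it. The gap within a dye pair reached 2.54 for Lum in NIC pool 1 and 2.43 for Fn1 in normal gland 2. Among KI tumours the largest was 1.49, for Pdgfra in tumour 2. KI tumour 2 had the lowest level of 35 of the 40 genes and the highest of 0, where it was lowest for 26.4% of all genes. It was lowest for 36 in the arrays with the tumours in Cy3 and for 34 in those with Cy5. KI tumour 3 had the highest level of 24 genes, against 24.8% of all genes.

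The median level of the 40 genes was 0.19, -1.35, 0.45, -0.59 and 0.26 in KI tumours 1 to 5. It was -0.31 and 0.11 in the normal glands and -1.01 and -1.72 in the NIC pools, so KI tumour 2 lay between the NIC pools. NIC pool 2 was lower than pool 1 for 34 of the 40 genes and for 46.6% of all genes. Without KI tumour 2 the median SD over the KI tumours was 0.448. Thbs1 did not share the low values of KI tumour 2, where its level of 1.17 was second only to tumour 5. S100a4, Thbs2 and Eln varied least, with SDs of 0.177, 0.209 and 0.230.

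**Figure D4:**
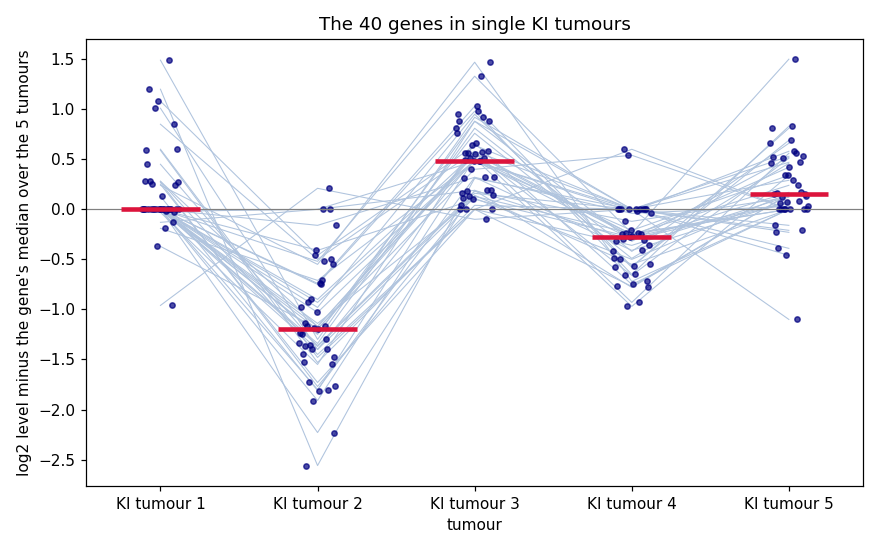
Levels of the 40 genes in the 5 KI tumours as the log2 level minus the gene's median over the tumours. Each blue point and line is a gene and red bars are medians over the genes; KI tumour 2 lies lowest for 35 genes and KI tumour 3 highest for 24.

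Without KI tumour 2, 10 of the 40 genes were called higher in KI than in NIC, in place of Tnc alone. Over all genes 4.10% were then called higher. The tumour left out had the lowest level of most of the 40 genes, so that the KI means of those genes rose by construction. The 10 genes were Tnc, Col18a1, Dpt, Pdgfrb, Col6a3, Fbln1, Col4a1, Thy1, Sparc and Col4a2, with differences between 1.20 for Col4a2 and 3.29 for Tnc and limma adjusted p between 0.00617 for Tnc and 0.0458 for Col18a1.

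Markers of other cell types also differed in level between the KI tumours. The median level of 9 skeletal muscle markers was 1.15 in KI tumour 2 and between -0.90 and 0.06 in the others. That of 14 endothelial markers was 0.84 in KI tumour 2 and 1.58 to 2.07 in the others, and that of 10 macrophage markers was 1.27 against 1.66 to 2.25. The 13 luminal epithelial markers had medians from 2.56 to 3.10, with KI tumour 2 at 2.92. On 2 of the 10 KI arrays, 1 each of tumours 2 and 3, image extraction fell on another day per the file headers. Without these arrays KI tumour 2 was still lowest for 35 genes. The part of other cell types in the low levels of tumour 2 was not tested.

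Marker levels of other cell types differed between normal gland and tumours as well. Beside the counts below, 9.81% of all genes were called lower and 8.78% higher in NIC, and 24.9% lower and 17.8% higher in KI. Of 16 adipocyte markers, 13 were lower in NIC and 13 in KI, with median levels of 3.85 and 3.57 in the glands, 0.31 and 0.02 in NIC and -0.02 to 0.39 in KI. Lep, for the adipocyte hormone leptin, had a mean level of 4.72 in normal gland, 0.21 in NIC and 0.14 in KI. Of 14 endothelial markers, 9 were lower in NIC and 6 in KI. The medians of the endothelial list were 2.67 and 2.82 in the glands and 1.42 and 1.17 in NIC. Of 11 pericyte and smooth muscle markers, 6 were lower in NIC and 3 in KI.

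Of 13 luminal epithelial markers, 10 were higher in NIC and 11 in KI. Their medians were 0.59 and 0.37 in the glands and 2.99 and 3.27 in NIC. Of 9 myoepithelial markers, 4 were lower in NIC, and in KI 4 were lower and 2 higher. Of 10 macrophage markers, 2 were higher and 1 lower in NIC and 2 were higher in KI. Of 11 lymphocyte markers 3 were lower in NIC, and in KI 8 were lower and 1 higher. Skeletal muscle markers were lower for 2 of 9 in each tumour kind, and of 8 peripheral nerve markers 2 were lower in each, with 3 higher in NIC and 4 in KI. The part of these cell types in the lower matrix genes was not tested.

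Other genes of matrix assembly gave further contrasts. Of 19 genes for collagen processing and cross-linking, 4 were higher and 2 lower in NIC, and 4 were higher and 1 lower in KI. Plod1 and Plod2, lysyl hydroxylases that prepare collagen for cross-linking, were higher in NIC by 2.11 ± 0.21 and 2.07 ± 0.14 and in KI by 1.56 ± 0.39 and 1.60 ± 0.39 (limma adjusted p = 0.0173, 0.0112, 0.0150 and 0.0133). Both KI calls were also lost without either normal gland, at limma adjusted p from 0.0509 to 0.0942. When arrays were scaled to one interquartile range, the KI differences were 0.84 for Plod1 (limma adjusted p = 0.160) and -0.04 for Plod2 (0.959). P4hb, the beta subunit of prolyl 4-hydroxylase, was higher by 1.70 ± 0.19 in NIC and 1.67 ± 0.22 in KI. P3h2, a prolyl 3-hydroxylase, was higher in NIC by 2.21 ± 0.16 (limma adjusted p = 0.0118).

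Pcolce2, an enhancer of procollagen C-proteinase, had levels of 1.35 and 2.01 in normal gland, -2.31 and -3.03 in NIC, and -3.38 to 0.39 in KI. It was lower in both tumour kinds, with differences of -4.35 ± 0.37 in NIC and -3.47 ± 0.93 in KI (limma adjusted p = 0.0143 and 0.0203). Without normal gland 1 or 2 the KI difference of Pcolce2 was not called (limma adjusted p = 0.0679 and 0.113). Bmp1, the procollagen C-proteinase itself, was lower in NIC (-1.23 ± 0.24, limma adjusted p = 0.0496), a call lost in 8 of 12 alternatives. The Bmp1 difference was -0.40 as the mean over all probes (limma adjusted p = 0.218) and -1.18 with arrays centred on their median (0.0537).

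Of 16 laminins and other basement membrane genes, 5 were lower in NIC (31.2%), and in KI 3 were lower and 2 higher (18.8% and 12.5%). Lama2, for the laminin alpha 2 chain, had levels of 3.56 and 3.88 in normal gland, 0.82 and -0.51 in NIC, and -0.15 to 1.48 in KI. Lama2 was lower in both (-3.56 ± 0.51 and -3.10 ± 0.53, limma adjusted p = 0.0298 and 0.00332), and so was Nid1, for nidogen 1 (-3.02 ± 0.32 and -2.39 ± 0.60). With arrays scaled to one interquartile range Lama2 differed by -2.15 in NIC and -1.65 in KI (limma adjusted p = 0.0663 and 0.0664), and its NIC call was also lost without either normal gland (0.0791 and 0.0859). The KI call of Nid1 was lost without normal gland 1 or 2 (limma adjusted p = 0.0548 and 0.0923). Lamb1, for the laminin beta 1 chain, was lower in NIC (-3.77 ± 0.37, limma adjusted p = 0.0173).

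Lamb3, for a chain of an epithelial laminin, had levels of -0.20 and 0.34 in normal gland, -0.31 and -0.03 in NIC, and 2.01 to 2.91 in KI. Like Tnc, it was above all other samples in every KI tumour. Lamb3 was higher in KI by 2.44 ± 0.27 over normal and 2.68 ± 0.27 over NIC (limma adjusted p = 0.000640 and 0.00400). Npnt, for the integrin ligand nephronectin, was lower in KI than in NIC (-1.24 ± 0.18, limma adjusted p = 0.0117).

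Of 18 matrix receptors, 5 were higher in NIC and 7 in KI (27.8% and 38.9%), and limma called 0 lower in either. At an unadjusted p under 0.05, 2 and 0 were lower. The heparan sulfate proteoglycan Sdc4, a co-receptor for fibronectin, was higher by 2.74 ± 0.29 in NIC and 2.37 ± 0.35 in KI, with the NIC call lost without either normal gland (limma adjusted p = 0.0561 and 0.0587). Sdc1, its epithelial relative, was higher by 1.13 ± 0.17 in NIC and 3.65 ± 0.70 in KI. Itgb6, for the beta chain of an epithelial integrin that binds latent TGF-beta, was higher by 1.89 ± 0.15 in NIC and 2.65 ± 0.37 in KI.

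Of 31 other fibroblast matrix genes, 12 were lower and 1 higher in NIC (38.7% and 3.23%). In KI 8 were lower and 6 higher (25.8% and 19.4%), close to the shares of all genes. The 1 higher in NIC was Col11a1, for a minor fibrillar collagen, with levels of 0.27 and 0.24 in normal gland, 4.89 and 4.45 in NIC, and 0.58 to 3.5 in KI. Col11a1 was higher by 4.41 ± 0.19 in NIC and 2.07 ± 0.71 in KI (limma adjusted p = 0.00808 and 0.0499). Efemp1, for fibulin 3, was lower in NIC and KI, with differences of -4.77 ± 0.47 and -3.85 ± 0.92 (limma adjusted p = 0.0177 and 0.0129). Without normal gland 1 or 2 the KI calls were lost for Col11a1 (limma adjusted p = 0.163 and 0.169) and Efemp1 (0.0585 and 0.0712), and that of Col11a1 also without KI tumour 1, 3, 4 or 5. As the mean over all probes, Col11a1 differed by 1.12 in KI (limma adjusted p = 0.0972). Without either normal gland the NIC call of Efemp1 was lost as well (0.0518 and 0.0562). Twist2, a transcription factor of mesenchymal cells, was lower in both, with differences of -2.95 ± 0.34 and -2.73 ± 0.32. Its relative Twist1 was lower in NIC (-3.82 ± 0.28).

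In KI against NIC, 2 of these 31 genes were higher (6.45%, against 2.92% of all genes). They were Ltbp1, which stores latent TGF-beta in the matrix, by 1.58 ± 0.34, and Pdpn, for the surface glycoprotein podoplanin, by 1.02 ± 0.16 (limma adjusted p = 0.0412 and 0.0143). Both calls were lost without either NIC pool (limma adjusted p = 0.178 and 0.217 for Ltbp1, 0.110 and 0.0612 for Pdpn), and that of Ltbp1 also without KI tumour 1, 3, 4 or 5 (0.066 to 0.0893). Ltbp1 differed by 0.65 as the mean over all probes (limma adjusted p = 0.0814), and Pdpn by 0.25 with samples in Cy5 alone (0.381).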

How the data were processed

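In the deposited tables each array has a column of log2 ratios, read here as sample over reference, with rows numbered by spot. Normal and NIC arrays share a table, for which scale, direction and spot layout were taken by analogy, and KI arrays have their own. The tables are listed under different array platforms. Probe names and the choice of the brightest probe came from the KI scanner files and were applied to both tables by spot number. Each KI column was set against the scanner values of its array, and r over spots was 0.982 to 0.988 after limma's normexp (offset 50) and loess. Column medians lay between -0.00987 and 0.0261. Interquartile ranges were 0.422 to 0.562 for KI, 0.514 to 0.559 for NIC and 0.761 to 0.970 for normal columns. Per the file headers, the scanner files of the 10 KI arrays, from Agilent Feature Extraction (A.7.5.1), give spot intensities, and the deposited log10 ratios in them set Cy5 over Cy3. RMA is listed in the submitters' processing notes without saying for which step; the rest of the authors' processing is not given in the sources used here. For 7 KI arrays the label fields and the labelling protocols disagree on the dyes, and the label fields were followed.

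Of 43790 spots per array, 2256 controls were left out and spots of a probe averaged, leaving 41174 probes. Probes were named by accession (20716), current symbol (5039) or older symbol (5279) through RefSeq, and 10140 kept the name in the file. The brightest probe on the KI arrays stood for each of 28919 genes, and the dye pair was averaged per RNA. No genome build is given for the array files.

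Differences were tested with limma 3.58.1 in R 4.3.3 (lmFit, eBayes, two-sided, Benjamini-Hochberg over all genes): the 2 glands and 2 pools alone for NIC against normal, and 1 fit of all 9 RNA samples for both KI comparisons. The number of arrays limits the precision. The script was tested on simulated data. The 40 genes, the related lists and the cell type lists were chosen with earlier results of these data known. Any of the 40 genes could be named, in related lists up to 3 called genes per direction with the largest difference, and in cell type lists up to 3 with the highest level in normal gland. Alternatives left out each sample, used 1 dye, kept arrays with the RNA as a random block, scaled or centred arrays, averaged probes, filtered dim genes, used other samples in the fit, left out arrays extracted on another day, and took KI ratios from scanner values.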

Additional observations from a re-analysis of the deposited data

Results flagged for a closer look

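In the 5 KI tumours, 2 of the 40 genes had a lowest value set apart from the rest, and chance sets apart about 1 group in 20. Col6a3 was -1.23 in KI tumour 2, where the next lowest tumour was 0.50, a gap of 0.743 of the whole range. Col12a1 was -0.19 in KI tumour 2 and 1.05 in the next, a gap of 0.80 of the range. The cause was not tested.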

How the results depend on the processing

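In NIC against normal, 12 alternatives were run, and in each KI comparison 19. Of the 13 genes called in NIC, 0 kept their call in all of them, and 6 (Dcn, Ogn, Pdgfra, Col6a3, Sparc and Thbs1) kept it in those that left out no sample. Of the 11 called in KI against normal, Dcn, Ogn, Pdgfra, Thbs1 and Tnc kept it throughout, as did Tnc in KI against NIC. Of the 16 calls in NIC for Erbb2 and the related genes named by rule, 0 held in all alternatives. Among the 40 genes, of those not called, 8, 16 and 12 changed sign in some alternative of the 3 comparisons and 15, 11 and 14 gained a call.

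Leaving out each sample in turn, the median difference of the 40 genes in NIC against normal was -1.22 to -0.64. Each of these fits rests on 1 sample of a group. Leaving out each KI tumour in turn, genes higher in KI than in normal numbered 2 to 7 (15% to 17.9% of all genes) and lower 7 to 8 (21.7% to 23.9%). Genes higher in KI than in NIC then numbered 1 to 10 (1.31% to 4.1%). With dye pairs kept apart and each RNA entered as a random block, 19 genes were lower and 2 higher in NIC, 7 were higher in KI than in normal and 12 higher in KI than in NIC. Over all genes this setting called 20.9% lower and 15.8% higher in NIC, 20.9% higher in KI than in normal and 7.32% higher in KI than in NIC. With arrays scaled to one interquartile range, 19 were lower in NIC (11.5% of all genes), and 2 were higher and 6 lower in KI than in normal (9.95% and 17.8% of all genes). With all 9 RNA samples in the fit, 10 were lower and 2 higher in NIC (21.1% and 14.8% of all genes). Among genes above the median signal, which hold 34 of the 40, 2 were higher in KI than in normal. Genes higher in KI than in NIC numbered 2 with samples in Cy3 alone, 3 with normexp and loess ratios and 2 with the scanner ratio, where 4.78%, 6.91% and 4.06% of all genes were. The median SD over KI tumours was 0.448 without tumour 2, an alternative chosen after seeing the data, as were the single-dye and single-day values over KI tumours. The reversed value among the genes named was Plod2 in KI against normal, -0.04 with scaled arrays. The causes were not tested.

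No paired analysis was possible because the labels give no replicate numbers that are shared between groups. Other probes differed in sign from the chosen one for 5, 10 and 3 of 20 genes with several probes in the 3 comparisons, and the spread between probes exceeded 1 for 10, 10 and 4. Signal over background on the normal and NIC arrays was not analysed here.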
